A study of Mus musculus with 6 samples.

Results

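The methionine cycle and the genes that lead from it to cysteine and taurine were followed across 6 libraries of mouse liver. The set holds 10 genes, chosen by symbol: Mat1a, Mat2a, Gnmt, Ahcy, Bhmt, Bhmt2, Cbs, Cth, Cdo1 and Csad. Each symbol had 1 row among the 28476 genes of the deposited expression table, and all 10 passed the filter on low values, which kept genes averaging 0.5 FPKM or more across the 6 libraries. FPKM counts sequenced fragments relative to transcript length and library size, so levels of different genes can be set side by side. The libraries hold whole-liver RNA of C57BL/6 mice fasted overnight and given 300 mg/kg acetaminophen (APAP) into the peritoneum, with the liver taken 24 h later. The tested mice (HepKO, 3 libraries) carry the genotype label Nedd4 HepKO, and the controls (Flox, 3 libraries) carry the label Flox. Both groups are of that strain and received the drug, and livers without it are not analysed here. The sources used here give neither the Cre driver nor the floxed exons nor the age and sex of the animals. Whether the 3 libraries of a group came from 3 animals is not stated either, so the spread behind each p-value may be technical. HepKO livers and Flox livers below stand for the libraries of each group.

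Methionine is activated to S-adenosylmethionine, the methyl donor of the cell, by methionine adenosyltransferases. After the methyl group is passed on, S-adenosylhomocysteine is split to homocysteine, which is either methylated back to methionine or passed through transsulfuration to cysteine. The liver runs most of this traffic in the body, and its cysteine feeds both glutathione, which traps the reactive metabolite of acetaminophen, and taurine, which is joined to bile acids.

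Nedd4, the ubiquitin ligase gene named in the genotype label, had 0.618, 0.666 and 0.565 FPKM in HepKO livers and 2.18, 2.59 and 2.23 FPKM in Flox livers, so the levels went with the labels (log2 fold change -1.04, SE 0.10, limma adjusted p = 0.0015). Library sums lay between 458490 and 496300 FPKM in HepKO livers and between 456180 and 461720 FPKM in Flox livers, and the depth is unknown. Mitochondrial transcripts took 24.6% of the sum in HepKO replicate 1, against 17.2% and 18.3% in the other HepKO libraries and 16.7% to 18.1% in the Flox libraries. Of 15 hepatocyte markers tested, 5 fell and 3 rose, and their summed level was 65547 to 70673 FPKM in HepKO livers and 60373 to 65051 FPKM in Flox livers. The 3 that rose were the fibrinogen genes Fga, Fgb and Fgg, with means of 5219, 4010 and 4331 FPKM in HepKO livers and 2762, 2288 and 3137 FPKM in Flox livers. The 5 that fell were Ahsg, Apoh, Asgr1, Cps1 and Hnf4a, with means of 2163, 951, 210, 143 and 93.0 FPKM in HepKO livers. Their means in Flox livers were 3046, 1332, 307, 344 and 124 FPKM, in that order. Alb, the largest part of the sum, did not pass. The higher sum is therefore no measure of hepatocyte content. Some markers of other cells moved as well, where 9.33% of all genes tested were called as higher and 11.0% as lower. All 9 tested neutrophil markers were called as higher, with a summed level over the 11 matched markers of 137 to 162 FPKM in HepKO livers and 10.7 to 20.5 FPKM in Flox livers. Of these, Cxcr2, Il1r2, Mmp8, Mmp9 and Ngp had Flox means of 0.241, 0.327, 0.173, 0.182 and 0.046 FPKM. They passed the filter only through their HepKO levels, so the count called is partly set by the filter. The same holds for Itgam and Ccr2 of the next list, with Flox means of 0.283 and 0.335 FPKM. Monocyte and macrophage markers summed to 137 to 174 FPKM in HepKO livers and 96.3 to 122 FPKM in Flox livers, with 4 of 8 tested higher and 1 lower, and erythrocyte markers, 4 of 5 higher, to 551 to 974 FPKM in HepKO livers and 132 to 234 FPKM in Flox livers. Of the remaining lists, 1 of 10 Kupffer cell, 3 of 10 stellate cell, 4 of 10 endothelial and 1 of 3 cholangiocyte markers tested rose, and 1 endothelial marker fell. The summed levels of the Kupffer cell, stellate cell and endothelial lists overlapped between the groups. Cholangiocyte markers summed to 14.2 to 17.6 FPKM in HepKO livers and 4.49 to 5.98 FPKM in Flox livers. None of the markers in these lists was at 0 in every library. The part of these cells in the results below was not tested.

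Of the 10 genes, 4 fell and 1 rose in HepKO livers, and 5 did not pass (limma on log2(FPKM + 1), Benjamini-Hochberg adjustment over all 12712 genes tested, threshold 0.05). Csad, Cth, Bhmt2 and Cbs fell, and Cdo1 rose. Across all genes tested, 11.0% were called as lower, 9.33% as higher and 20.3% in either direction. The median log2 fold change of the 10 genes was -0.48, against -0.06 over all genes tested. The 3 HepKO libraries lay below the 3 Flox libraries for 6 of the 10 genes and above them for 1, and the groups overlapped for 3. Among all genes tested, 25.2% lay below without overlap, 17.2% above, and 42.4% either way. The count of lower genes was 2 without HepKO replicate 2, and Cdo1 was not called without HepKO replicate 1, 2 or 3 or Flox replicate 2 or 3. Without HepKO replicate 2, lower calls over all genes also shrank, to 615 from 1397. In the authors' deposited table, 5 of the 10 genes had a q-value under 0.05, and these were the same 5 genes. Those q-values come from the same 6 libraries, so the match is no independent support, and their share under 0.05 over all genes is not given here. In bulk tissue, fewer cells of a type and less RNA per cell cannot be told apart.

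**Figure D1:**
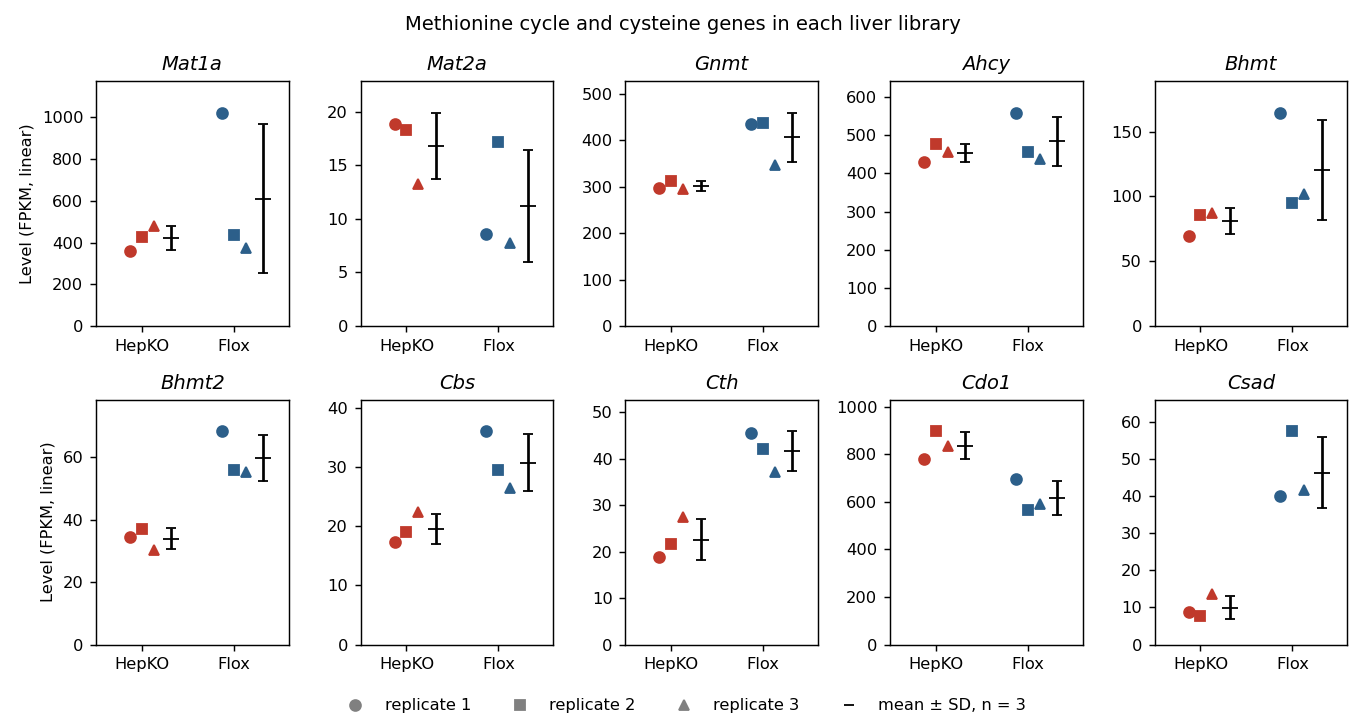
Level of each of the 10 genes in FPKM on a linear axis from 0, with HepKO libraries in red at the left and Flox libraries in blue at the right of each panel; marker shape gives the replicate number and the black bar the mean ± SD of 3 libraries. The HepKO libraries of Csad sit between 7.58 and 13.5 FPKM, below the Flox libraries at 40.0 to 57.3 FPKM, and Flox replicate 1 stands alone for Mat1a at 1021 FPKM.

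The entry of methionine into the cycle was not called as changed. Mat1a, which encodes the methionine adenosyltransferase of mature hepatocytes (ENSMUSG00000037798, chromosome 14, 41105035 to 41124412), had 362, 429 and 478 FPKM in HepKO livers and 1021, 434 and 376 FPKM in Flox livers. The groups overlapped, and Flox replicate 1 lay far above the other 5 libraries. The means were 423 ± 58.1 FPKM in HepKO livers and 610.4 ± 357 FPKM in Flox livers (SD, n = 3), and the log2 fold change was -0.39, with 95% limits from limma of -1.26 and 0.49 (adjusted p = 0.49). Without Flox replicate 1 the means were 423 FPKM in HepKO livers and 405 FPKM in Flox livers, and the log2 fold change was 0.056 (adjusted p = 0.83).

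Mat2a, which encodes the form found in most other tissues and in proliferating liver (ENSMUSG00000053907, chromosome 6, 72432799 to 72439558), was far less abundant. Its level was 18.9, 18.2 and 13.2 FPKM in HepKO livers and 8.55, 17.2 and 7.79 FPKM in Flox livers. HepKO libraries were high except for replicate 3, and Flox replicate 2 lay among the HepKO libraries. Its log2 fold change was 0.61, with 95% limits of -0.09 and 1.31, and missed the threshold (adjusted p = 0.19); without Flox replicate 2 it was 0.94 and passed (adjusted p = 0.032). Mat1a exceeded Mat2a in every library, by 19.2, 23.5 and 36.1 times in HepKO livers and by 119, 25.3 and 48.2 times in Flox livers. The ratios overlapped between the groups. The ratio of the group means was 25.2 in HepKO livers and 54.6 in Flox livers, and 32.4 in Flox livers without replicate 1 or 85.5 without replicate 2.

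Gnmt and Ahcy follow in the cycle. Gnmt encodes glycine N-methyltransferase, an abundant liver enzyme that spends S-adenosylmethionine on glycine (ENSMUSG00000002769, chromosome 17, 46725664 to 46729168). Its level was 297, 313 and 295 FPKM in HepKO livers and 436, 438 and 346 FPKM in Flox livers. The groups did not overlap, but the difference just missed the threshold (log2 fold change -0.42, SE 0.12, adjusted p = 0.053). It passed without Flox replicate 3 (log2 fold change -0.53, adjusted p = 0.040), the lowest of the Flox libraries.

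Ahcy encodes the hydrolase that splits S-adenosylhomocysteine (ENSMUSG00000027597, chromosome 2, 155059310 to 155074497). It had 429.6, 476 and 455 FPKM in HepKO livers and 558, 455 and 438 FPKM in Flox livers. These groups overlapped, and the log2 fold change of -0.09 had an interval of -0.38 to 0.21 (adjusted p = 0.66), turning to 0.022 without Flox replicate 1 (adjusted p = 0.91). Of the 75-base stretches in the Ahcy transcripts of GENCODE M21, 65.9% also occur in transcripts of other genes, chiefly the copies Gm4737 and Gm9826, so its level is uncertain. With these copies and Gm5638 added to it, Ahcy had 647, 674 and 639.6 FPKM in HepKO livers and 779, 639 and 578 FPKM in Flox livers (log2 fold change -0.02, adjusted p = 0.95).

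Homocysteine is methylated with betaine by the product of Bhmt, and with S-methylmethionine by that of its neighbouring paralog Bhmt2. Bhmt2 fell, and Bhmt, the more abundant paralog, did not pass. Bhmt2 (ENSMUSG00000042118, chromosome 13, 93655720 to 93674302) had 34.3, 36.9 and 30.2 FPKM in HepKO livers and 68.2, 55.8 and 55.3 FPKM in Flox livers. Every HepKO library lay below every Flox library. The means were 33.8 ± 3.36 FPKM in HepKO livers and 59.8 ± 7.29 FPKM in Flox livers (SD, n = 3), 1.77-fold lower (log2 fold change -0.80, SE 0.13, adjusted p = 0.0077). Its call was kept without any 1 of the 6 libraries (adjusted p = 0.018 to 0.027).

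Bhmt (ENSMUSG00000074768, chromosome 13, 93616675 to 93637961) had 69.1, 85.5 and 87.3 FPKM in HepKO livers and 164, 94.8 and 102 FPKM in Flox livers. The groups did not overlap, with Flox replicate 1 the highest by far. The log2 fold change of -0.53 had an interval of -1.07 to -0.0012 before adjustment and did not pass over all genes (adjusted p = 0.14); without Flox replicate 1 it was -0.29 (adjusted p = 0.21). The ratio of Bhmt to Bhmt2 was 2.01, 2.32 and 2.89 in HepKO livers and 2.41, 1.70 and 1.84 in Flox livers, and the groups overlapped. Bhmt shares 21% of its 75-base stretches with the copies Gm5096 and Bhmt-ps1, against 1.17% shared stretches for Bhmt2, and with the copies added its log2 fold change was -0.60 (adjusted p = 0.12).

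The stretches before the start sites of these paralogs differ in make-up. They are shown with those of Cbs and Csad because these 4 genes include 3 of those that fell beside 1 neighbour that did not pass. Each run is the 250 bases before a RefSeq start site on GRCm38.p6, minus strand, 5′ to 3′; capitals mark the CCAAT box, the GC box (GGGCGG) or the letters CAAAGGTCA (as in sites bound by HNF4), searched on both strands.
Bhmt, chr13:93637759-93638008: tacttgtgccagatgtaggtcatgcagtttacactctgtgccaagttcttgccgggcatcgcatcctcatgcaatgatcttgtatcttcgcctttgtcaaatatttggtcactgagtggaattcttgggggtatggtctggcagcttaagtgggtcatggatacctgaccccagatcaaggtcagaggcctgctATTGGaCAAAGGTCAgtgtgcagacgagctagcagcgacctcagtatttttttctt
Bhmt2, chr13:93674303-93674552: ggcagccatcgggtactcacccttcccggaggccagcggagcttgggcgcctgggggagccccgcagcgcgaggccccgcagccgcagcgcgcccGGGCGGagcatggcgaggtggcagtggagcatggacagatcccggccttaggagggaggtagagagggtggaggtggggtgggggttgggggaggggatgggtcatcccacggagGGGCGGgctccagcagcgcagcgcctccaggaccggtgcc
Cbs, chr17:31637206-31637455: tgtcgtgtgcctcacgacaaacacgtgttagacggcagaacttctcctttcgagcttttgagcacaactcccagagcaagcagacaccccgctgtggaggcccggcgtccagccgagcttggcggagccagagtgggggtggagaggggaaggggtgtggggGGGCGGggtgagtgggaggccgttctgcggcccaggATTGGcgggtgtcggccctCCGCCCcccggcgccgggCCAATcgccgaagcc
Csad, chr15:102205053-102205302: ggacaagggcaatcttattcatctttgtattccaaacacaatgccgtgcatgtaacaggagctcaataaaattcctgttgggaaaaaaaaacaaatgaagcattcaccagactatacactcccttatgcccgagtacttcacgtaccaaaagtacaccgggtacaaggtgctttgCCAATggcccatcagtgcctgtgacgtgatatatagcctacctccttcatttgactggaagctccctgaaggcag
G and C made up 48.0% of the bases for Bhmt, 74.0% for Bhmt2, 68.0% for Cbs and 44.8% for Csad, against a median of 52.4% over all 32851 windows of that length. Bhmt2 had 2 GC boxes, and Cbs had 2 GC boxes and 2 CCAAT boxes, 1 on each strand. Csad had 1 CCAAT box. Bhmt had 1 CCAAT box and 1 CAAAGGTCA, a run found in 0.426% of all windows. CCAAT was found in 33.9% of all windows and GGGCGG in 32.7%. The letters of an AP-1 site (TGANTCA), of the antioxidant response element core (TGACNNNGC), of the ATF4 and C/EBP composite element (TGATGNAA) and of a TATA box (TATAAA) were not in these 4 windows; they were in 6.75%, 10.2%, 3.45% and 12.4% of all windows, in that order. The table gave entries for 7 of the 10 genes. The Csad start site used here lies upstream of the deposited gene span, and RefSeq has a further start site for Csad, inside that span, whose window is not printed. The 250 bases before that further site (chr15:102189044-102189293) differ, with 55.6% G and C, a GC box and no CCAAT box.

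Both transsulfuration genes fell. Cbs encodes cystathionine beta-synthase, which joins homocysteine to serine (ENSMUSG00000024039, chromosome 17, 31608894 to 31637238). It had 17.3, 19.1 and 22.3 FPKM in HepKO livers and 36.0, 29.6 and 26.6 FPKM in Flox livers. All HepKO libraries lay below all Flox libraries, and replicate 3 of each group came closest to the other group. The means were 19.6 ± 2.54 FPKM in HepKO livers and 30.7 ± 4.84 FPKM in Flox livers (SD, n = 3), 1.57-fold lower (log2 fold change -0.62, SE 0.15, adjusted p = 0.031). This call was lost without HepKO replicate 1 (adjusted p = 0.082), HepKO replicate 2 (0.095), Flox replicate 1 (0.064) or Flox replicate 2 (0.082).

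Cth encodes cystathionine gamma-lyase, which releases cysteine from cystathionine (ENSMUSG00000028179, chromosome 3, 157894248 to 157925077). Its level was 18.8, 21.6 and 27.4 FPKM in HepKO livers and 45.6, 42.1 and 37.2 FPKM in Flox livers. Again no libraries of the groups overlapped. The means of 22.6 ± 4.43 FPKM in HepKO livers and 41.7 ± 4.22 FPKM in Flox livers (SD, n = 3) differed 1.84-fold (log2 fold change -0.87, SE 0.16, adjusted p = 0.012). Without HepKO replicate 2 the adjusted p was 0.0507. Cth overlaps Gm43314 on its own strand, which averaged 0.819 FPKM over the 6 libraries. The Cbs to Cth ratio was 0.924, 0.882 and 0.814 in HepKO livers and 0.790, 0.703 and 0.713 in Flox livers.

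On the way from cysteine to taurine, neighbouring steps moved in opposite directions. Cdo1 encodes cysteine dioxygenase, which oxidises cysteine to cysteine sulfinate (ENSMUSG00000033022, chromosome 18, 46713193 to 46728395). It had the highest mean of the 10 genes in HepKO livers, and in Flox livers it overlapped with Mat1a, whose mean was the higher without Flox replicate 2 or 3. Its level was 780.3, 896 and 834 FPKM in HepKO livers and 696, 564 and 589 FPKM in Flox livers. All HepKO libraries lay above all Flox libraries. Its mean of 837 ± 58.0 FPKM in HepKO livers was 1.36-fold that of 616 ± 69.8 FPKM in Flox livers (SD, n = 3; log2 fold change 0.44, SE 0.12, adjusted p = 0.043). The call was lost without HepKO replicate 1 (adjusted p = 0.055), HepKO replicate 2 (0.14), HepKO replicate 3 (0.084), Flox replicate 2 (0.14) or Flox replicate 3 (0.14), and when every library was scaled to 1 total (0.084).

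Csad encodes the decarboxylase that turns cysteine sulfinate into hypotaurine (ENSMUSG00000023044, chromosome 15, 102176999 to 102204253). It had 8.69, 7.58 and 13.5 FPKM in HepKO livers and 40.0, 57.3 and 41.5 FPKM in Flox livers. The highest HepKO library lay well below the lowest Flox library. The means were 9.91 ± 3.13 FPKM in HepKO livers and 46.3 ± 9.60 FPKM in Flox livers (SD, n = 3), 4.67-fold lower (log2 fold change -2.13, SE 0.23, adjusted p = 0.0021). Only 16 of the 12712 genes tested had a more negative log2 fold change. The Csad call was kept without any 1 of the 6 libraries, with log2 fold changes of -2.36 to -1.97 and adjusted p of 0.0028 to 0.011. Csad overlaps Zfp740 on the other strand, which averaged 5.41 FPKM over the 6 libraries, and the sources used here do not say whether fragments were assigned by strand. The ratio of Cdo1 to Csad was 89.8, 118 and 62.0 in HepKO livers and 17.4, 9.84 and 14.2 in Flox livers, without overlap.

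**Figure D2:**
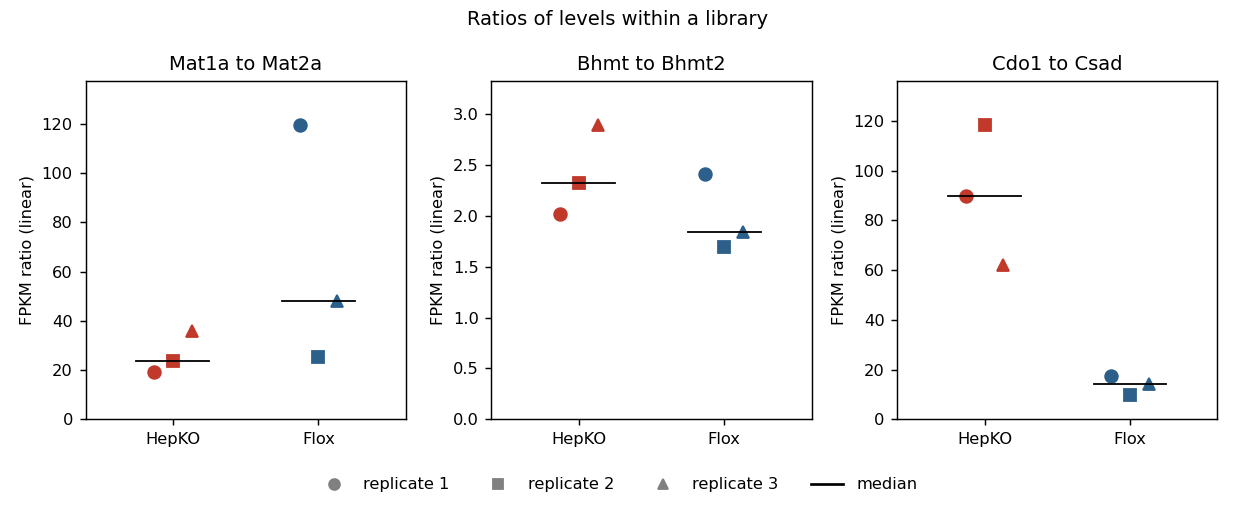
Ratio of FPKM levels within each library on a linear axis from 0, for Mat1a to Mat2a, Bhmt to Bhmt2 and Cdo1 to Csad; HepKO libraries are at the left, Flox libraries at the right, and lines mark medians. The groups overlap for the Mat1a and Bhmt ratios and are apart for Cdo1 to Csad, at 62.0 to 118 in HepKO livers and 9.84 to 17.4 in Flox livers.

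**Figure D3:**
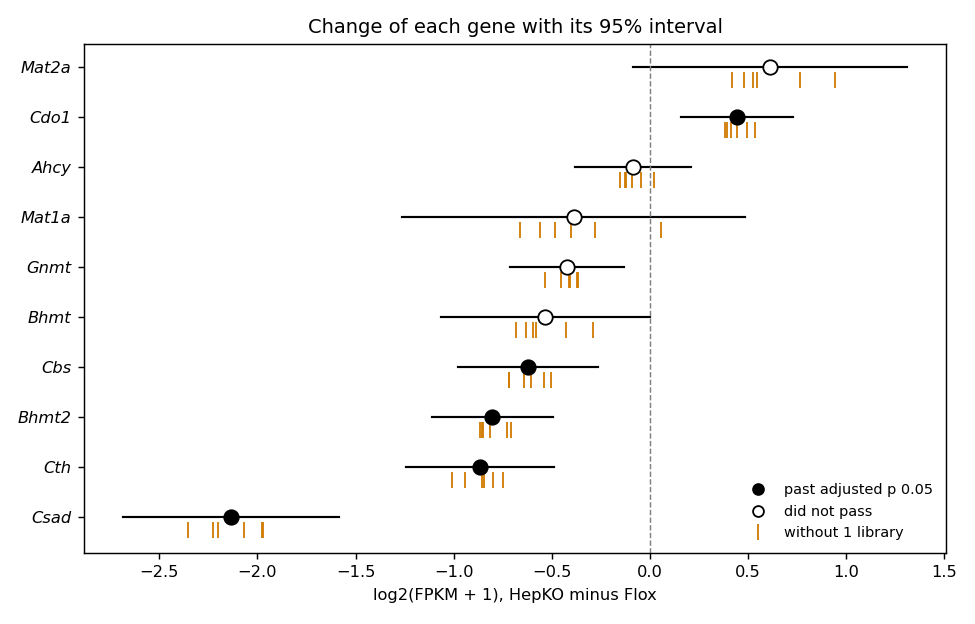
Log2 fold change of HepKO against Flox on the log2(FPKM + 1) scale for each of the 10 genes, with its 95% limma interval as a line; filled points passed the threshold, and orange ticks are the values with 1 library left out. The 6 ticks of Csad lie between -2.36 and -1.97, and 1 tick of Mat1a and 1 of Ahcy lie just above 0.

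Placed by mean level, the genes in HepKO livers ran from Cdo1 (837 FPKM) through Ahcy (454), Mat1a (423), Gnmt (302), Bhmt (80.6), Bhmt2 (33.8), Cth (22.6), Cbs (19.6) and Mat2a (16.8) to Csad (9.91 FPKM). The libraries of Ahcy and Mat1a overlapped there, as did each neighbour from Cth down to Csad. In Flox livers the order was Cdo1 (616 FPKM), Mat1a (610.4), Ahcy (484), Gnmt (407), Bhmt (120.2), Bhmt2 (59.8), Csad (46.3), Cth (41.7), Cbs (30.7) and Mat2a (11.2 FPKM). Neighbours from Cdo1 to Gnmt overlapped in turn, and so did Bhmt2 with Csad and Csad with Cth. Csad was thus last of the 10 in HepKO livers and seventh in Flox livers. Flox replicate 1 was the highest Flox library for 7 of the 10 genes, against 31.6% of all genes tested. Together the 10 genes took 0.410%, 0.479% and 0.492% of the library sums in HepKO livers and 0.674%, 0.477% and 0.437% in Flox livers.

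Around these genes, 126 others of the same metabolism were listed in 9 groups, and 114 of them were tested. Of these 114, 36 fell, 9 rose and 69 did not pass, and the median log2 fold change was -0.28. Over all genes tested, 11.0% were called as lower and 9.33% as higher, the shares against which this and each list count below should be read. Without HepKO replicate 2 the counts of the 114 genes were 20 lower and 5 higher. The lists were drawn up with earlier results of these data known and were given no test of their own. Of the 5 lists with 0 genes called as higher by limma, the glutathione, serine and glycine, and methionine cycle lists each had 1 higher gene at an unadjusted p under 0.05, and the choline and methyltransferase lists had 0. With median-ratio rescaling, 1 gene of the glutathione list and 1 of the serine and glycine list were called as higher.

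**Figure D4:**
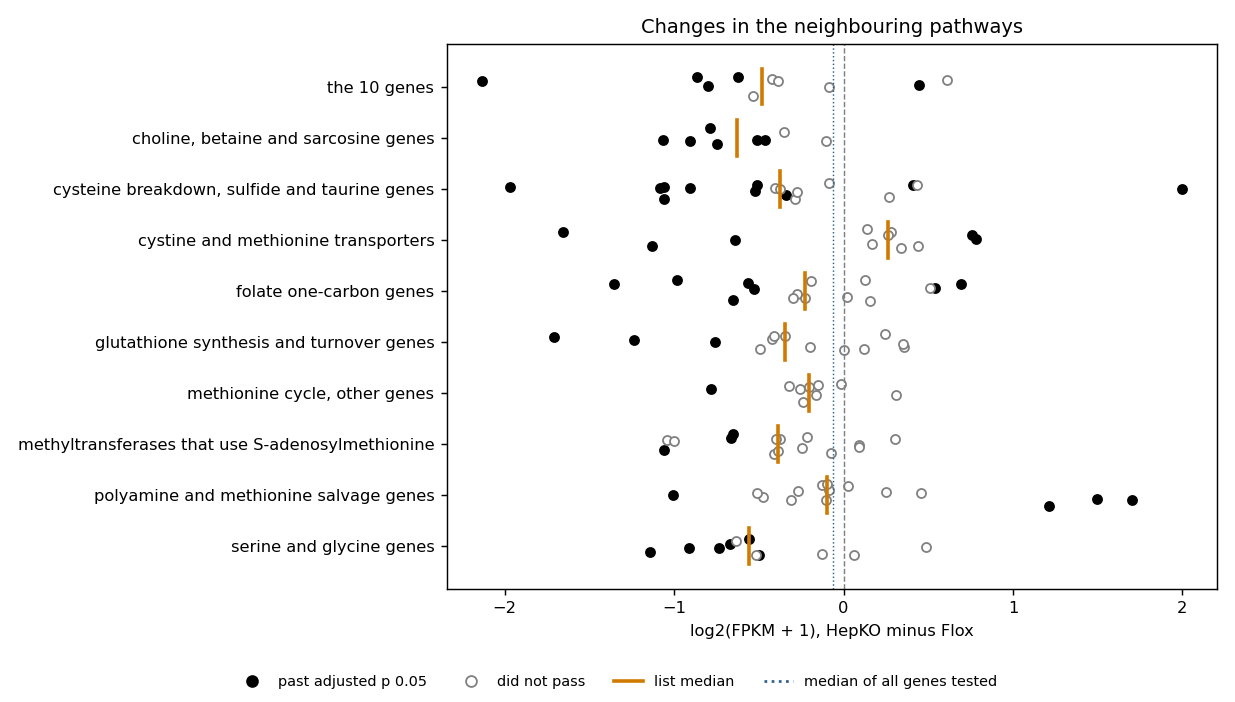
Log2 fold change of HepKO against Flox on the log2(FPKM + 1) scale for every tested gene of the set and of the 9 neighbouring lists; filled points passed the threshold, orange bars are list medians and the dotted line is the median of all genes tested, -0.06. All 8 choline, betaine and sarcosine genes lie below 0, and the polyamine list has 3 filled points above 1.

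Of 8 genes that handle choline, betaine and sarcosine, 6 fell, 0 rose and 2 did not pass, with a median log2 fold change of -0.63. Those that did not pass were Chdh, which oxidises choline (adjusted p = 0.15), and the betaine carrier gene Slc6a12 (adjusted p = 0.57), named after their values were seen. Pipox, a peroxisomal sarcosine oxidase, had 27.8 ± 1.66 FPKM in HepKO livers and 60.5 ± 15.3 FPKM in Flox livers (adjusted p = 0.010), and Slc6a13, a carrier of GABA and taurine, had 30.2 ± 3.89 FPKM in HepKO livers and 57.5 ± 7.91 FPKM in Flox livers (adjusted p = 0.0078). The most abundant, Dmgdh, oxidises the dimethylglycine that the Bhmt reaction leaves. It had 62.6 ± 1.12 FPKM in HepKO livers and 87.1 ± 9.43 FPKM in Flox livers (adjusted p = 0.029). The Dmgdh call was lost without HepKO replicate 1, 2 or 3 or Flox replicate 2 or 3 (adjusted p = 0.061 to 0.099). Here and below, errors are SD with n = 3 and p-values are from limma.

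Within the methionine cycle itself, 1 of 9 other tested genes fell and 0 rose, with a median of -0.20. The gene that fell was Adk, the kinase that clears the adenosine released by the Ahcy reaction, with 42.0 ± 5.30 FPKM in HepKO livers and 72.6 ± 4.53 FPKM in Flox livers (adjusted p = 0.0071). Methionine synthase Mtr, the folate-dependent route back to methionine, was low throughout, at 0.806 ± 0.171 FPKM in HepKO livers and 1.01 ± 0.171 FPKM in Flox livers, and missed the threshold (adjusted p = 0.41); it was chosen after its values were seen. Of 15 methyltransferases that use S-adenosylmethionine, 3 fell and 0 rose, with a median of -0.39, and 5 fell without Flox replicate 1. Pemt, which makes phosphatidylcholine by methylation, had 60.0 ± 2.31 FPKM in HepKO livers and 126 ± 6.63 FPKM in Flox livers (adjusted p = 0.0012). The most abundant, Mettl7b, had 252 ± 36.5 FPKM in HepKO livers and 341 ± 108 FPKM in Flox livers and did not pass (adjusted p = 0.27). Hnmt also fell; it methylates histamine and had 1.69, 1.38 and 1.14 FPKM in HepKO livers and 2.56, 3.14 and 2.59 FPKM in Flox livers, and it was named after its values were seen.

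Folate genes split. Of 15 tested, 5 fell and 2 rose, with a median of -0.23. The cytosolic enzymes Shmt1 and Mthfd1 fell, with 10.8 ± 0.33 FPKM in HepKO livers and 29.3 ± 3.20 FPKM in Flox livers for Shmt1 (adjusted p = 0.00096), and 9.81 ± 0.88 FPKM in HepKO livers and 20.4 ± 2.06 FPKM in Flox livers for Mthfd1 (adjusted p = 0.0028). Their mitochondrial counterparts Shmt2 and Mthfd1l rose, with 51.3 ± 7.58 FPKM in HepKO livers and 31.1 ± 0.91 FPKM in Flox livers for Shmt2 (adjusted p = 0.013), and 2.69 ± 0.31 FPKM in HepKO livers and 1.54 ± 0.14 FPKM in Flox livers for Mthfd1l (adjusted p = 0.017). Ftcd, which takes folate-bound carbon from histidine, was the most abundant, at 82.5 ± 10.2 FPKM in HepKO livers and 122 ± 2.56 FPKM in Flox livers (adjusted p = 0.019). The Shmt2 call was lost without HepKO replicate 2 (adjusted p = 0.056) or Flox replicate 3 (0.0502), that of Mthfd1l without HepKO replicate 1 or 2 or Flox replicate 2 (0.051 to 0.066), and that of Ftcd without HepKO replicate 2 or Flox replicate 2 or 3 (0.060 to 0.069). Without HepKO replicate 2 the folate list had 2 lower and 0 higher. It had 2 lower without Flox replicate 2, 3 lower without HepKO replicate 3 or Flox replicate 1 or 3, and 1 higher without HepKO replicate 1 or Flox replicate 3.

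Serine joins homocysteine in the Cbs reaction. Of 11 tested serine and glycine genes, 6 fell and 0 rose, with a median of -0.56. Amt, of the glycine cleavage system, had 4.71 ± 0.33 FPKM in HepKO livers and 11.6 ± 0.50 FPKM in Flox livers (adjusted p = 0.0011), and Glyat, which joins glycine to acyl groups, had 15.1 ± 0.57 FPKM in HepKO livers and 29.5 ± 3.97 FPKM in Flox livers (adjusted p = 0.0039). The most abundant, Agxt, which turns glyoxylate into glycine, had 48.9 ± 10.03 FPKM in HepKO livers and 70.5 ± 16.0 FPKM in Flox livers and did not pass (adjusted p = 0.13). The count of lower genes was 2 without HepKO replicate 2 or Flox replicate 2, and 3 without HepKO replicate 1 or Flox replicate 1 or 3.

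Beyond Cdo1 and Csad, 17 genes of cysteine breakdown, sulfide and taurine were tested, of which 8 fell and 2 rose, with a median of -0.37. Fmo1, whose product oxidises hypotaurine to taurine, had 7.92 ± 0.52 FPKM in HepKO livers and 33.9 ± 1.18 FPKM in Flox livers, 4.28-fold lower (adjusted p = 0.00026). Slc26a1, a sulfate carrier, had 6.24 ± 1.08 FPKM in HepKO livers and 14.4 ± 2.85 FPKM in Flox livers (adjusted p = 0.0085). Baat, which joins taurine to bile acids, rose to 86.3 ± 4.25 FPKM in HepKO livers, against 64.8 ± 3.19 FPKM in Flox livers (adjusted p = 0.027). Selenbp1, a methanethiol oxidase gene, was the most abundant and rose to 202 ± 48.1 FPKM in HepKO livers, against 48.8 ± 4.23 FPKM in Flox livers (adjusted p = 0.0014); 29.9% of its 75-base stretches are shared with Selenbp2, so its level is uncertain. The Baat call was lost without HepKO replicate 2 or Flox replicate 2 or 3 (adjusted p = 0.081 to 0.10) and after rescaling to a common sum (0.063). The list had 4 lower and 1 higher without HepKO replicate 2, 5 lower and 1 higher without Flox replicate 2, 1 higher without Flox replicate 3, and 5 lower without HepKO replicate 1.

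Glutathione is the other large use of cysteine. Of 13 tested genes of its synthesis and turnover, 3 fell and 0 rose, with a median of -0.35. Gclm, the modifier subunit of the rate-limiting ligase, had 12.3 ± 1.59 FPKM in HepKO livers and 30.9 ± 8.16 FPKM in Flox livers (adjusted p = 0.0073), while the catalytic subunit Gclc, the most abundant, had 200.2 ± 17.7 FPKM in HepKO livers and 232 ± 38.5 FPKM in Flox livers and did not pass (adjusted p = 0.38). Chac2, which degrades glutathione, had 4.64 ± 1.11 FPKM in HepKO livers and 17.3 ± 2.73 FPKM in Flox livers (adjusted p = 0.0021). The third was Anpep, an aminopeptidase gene, with 21.9, 18.9 and 18.4 FPKM in HepKO livers and 30.5, 36.3 and 35.7 FPKM in Flox livers, named after its values were seen. Gclm and Chac2 overlap genes on the other strand, and Gclm also overlaps Gm6061 on its own strand (mean 1.82 FPKM over the 6 libraries). Other named genes overlap genes on the other strand too, among them Shmt1, Slc3a1, Shmt2, Mettl7b and Slc26a1.

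Transporters of cystine and methionine moved both ways, 3 lower and 2 higher of 11 tested. Slc3a1, the heavy subunit of a cystine carrier, had 6.30 ± 0.41 FPKM in HepKO livers and 22.1 ± 3.80 FPKM in Flox livers (adjusted p = 0.0010), and Slc1a4, a carrier of small neutral amino acids, had 1.21 ± 0.19 FPKM in HepKO livers and 3.97 ± 1.53 FPKM in Flox livers (adjusted p = 0.014). Slc38a4, the most abundant, had 75.6 ± 4.09 FPKM in HepKO livers and 120.0 ± 24.2 FPKM in Flox livers (adjusted p = 0.029). The large neutral amino acid carriers Slc7a5 and Slc7a8 rose at low levels, to 2.26 ± 0.28 FPKM in HepKO livers, against 0.893 ± 0.11 FPKM in Flox livers for Slc7a5 (adjusted p = 0.0052), and to 1.81 ± 0.49 FPKM in HepKO livers, against 0.648 ± 0.11 FPKM in Flox livers for Slc7a8 (adjusted p = 0.017). The list's median was 0.26, opposite in sign to its larger number of falls. Slc7a9 of this list was at 0 FPKM in every library. Slc7a11 had 3.02 ± 0.77 FPKM in HepKO livers and 2.01 ± 0.80 FPKM in Flox livers and did not pass (adjusted p = 0.23). Both were named after their values were seen. The call of Slc7a8 was lost without HepKO replicate 2 or Flox replicate 2 (adjusted p = 0.060 and 0.061), that of Slc1a4 without HepKO replicate 2 (0.052), and that of Slc38a4 without HepKO replicate 1, 2 or 3 or Flox replicate 3 (0.052 to 0.095). The list had 1 lower and 1 higher without HepKO replicate 2, and 1 higher without Flox replicate 2.

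Polyamine and methionine salvage genes had 3 higher and 1 lower of 15 tested, with a median of -0.10. Sat1, the acetyltransferase that starts polyamine breakdown and the most abundant of the list, rose to 109.8 ± 22.2 FPKM in HepKO livers, against 32.7 ± 3.42 FPKM in Flox livers (adjusted p = 0.0017). Smox, spermine oxidase, rose to 6.79 ± 0.88 FPKM in HepKO livers, against 1.77 ± 0.33 FPKM in Flox livers (adjusted p = 0.0014). Odc1, ornithine decarboxylase, was the third that rose, with 70.1, 74.1 and 64.8 FPKM in HepKO livers and 26.7, 26.8 and 35.4 FPKM in Flox livers, and was named after its values were seen. Adi1, of the salvage route that returns methylthioadenosine to methionine, had 35 ± 3.16 FPKM in HepKO livers and 71.3 ± 6.16 FPKM in Flox livers (adjusted p = 0.0026), and without Flox replicate 2 the list had 2 lower.

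The genes most like the extremes of the set were sought by Pearson r of log2(FPKM + 1) over the 6 libraries, as a description. For Mat2a, which had the highest log2 fold change of the 10 but did not pass, these were Zbed3 (r = 0.996), the folate carrier gene Slc19a1 (r = 0.98) and the glucocorticoid receptor gene Nr3c1 (r = 0.975). For Csad, which had the lowest, they were Frg2f1, Mrpl15 and 1700066M21Rik (r = 0.998 each). Zbed3 hardly differed between the groups, with means of 1.91 FPKM in HepKO livers and 1.78 FPKM in Flox livers. Frg2f1 was low, with means of 0.778 FPKM in HepKO livers and 1.52 FPKM in Flox livers. Each r is the highest found among all tested genes over only 6 libraries, so values near 1 show no link by themselves.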

How the data were processed

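Poly(A) RNA of whole liver went, per the labels' protocols, into libraries with a dUTP-marked second strand and paired reads. The authors deposited 1 table with the FPKM of each library and their own p-values and q-values. The submitters' processing notes list StringTie 1.3.4d, HISAT2 2.0.4, cutadapt 1.9, edgeR and DESeq2 without saying what each did, so the tool behind the deposited p-values is not known here. FPKM carry no read numbers, so no count test was run, and counts behind a value are unknown. The build is not given; 28396 of 28476 identifiers are in GENCODE M21 (GRCm38), 25619 of them with the same chromosome, start and end, and 9 of the 10 genes (Csad ends elsewhere there).

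The 12712 genes averaging 0.5 FPKM or more went into a two-sided limma fit (version 3.58.1, R 4.3.3) of log2(FPKM + 1) on genotype alone with a variance trend, adjusted by Benjamini-Hochberg over all of them at 0.05; this scale understates the change of low genes. Folds are ratios of group mean FPKM. The fit was tested on simulated data. Shared stretches of 75 bases were counted in GENCODE M21 transcripts, and promoter windows came from RefSeq, GRCm38.p6. Summaries and plots used Python 3.11.15, pandas 2.3.3 and matplotlib 3.10.9.

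The 10 genes, the lists and the motifs were chosen with earlier results of these data known. Named were all 10 genes, Nedd4, from each list the called genes with the 2 largest changes in each direction and the most abundant gene, and the 3 genes most like those with the highest and the lowest log2 fold change of the 10; genes beyond this rule are marked as chosen after their values were seen. 1 gene that the rule names is not reported here. Symbols with more than 1 identifier took the more abundant one. The alternatives changed the pseudocount, the filter, the scaling, limma's moderation or the threshold, added a replicate block, left out each library, or summed near-identical copies, the last chosen after seeing the data.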

Additional observations from a re-analysis of the deposited data

How the results depend on the processing

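The log2 fold changes of Csad and Bhmt2 kept their direction and passed under all 16 alternatives, at -2.36 to -1.79 for Csad and -0.87 to -0.71 for Bhmt2. Cth was lost under the replicate block and without HepKO replicate 2, Cbs in 6 and Cdo1 in 8 of 16. Mat1a and Ahcy turned direction without Flox replicate 1, to 0.056 and 0.022; with 1 library left out they lay between -0.66 and 0.056 (Mat1a) and between -0.15 and 0.022 (Ahcy). The counts of 4 lower and 1 higher of the 10 genes were 2 to 5 lower and 0 to 1 higher with 1 library left out; without Flox replicate 2 the higher gene was Mat2a, and without Flox replicate 3 the fifth lower gene was Gnmt. No gene of the 10 was called higher without a filter (26473 genes tested) or after scaling to 1 total, where 5 were lower, Gnmt added. At a threshold of 0.01, 2 were lower and 0 higher, and of the other pathway genes 19 were lower and 5 higher, against 36 and 9. Those were 20 to 32 lower and 5 to 10 higher with 1 library left out.

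Over all genes, 2583 calls became 939 at a threshold of 0.01 and 1305 to 2288 with 1 library left out, the lower end without HepKO replicate 2 (1305), Flox replicate 2 (1323), Flox replicate 3 (1481) and HepKO replicate 1 (1661). Lower calls fell to 899 without a filter, against 1397. Same-numbered libraries did not deviate together over all genes (r = -0.025 to 0.003 over 12712 genes), and libraries of unlike number had r of -0.046 to 0.05. An r over all genes cannot show a shared origin that moved only some genes, so whether the numbers pair the libraries stays unknown. With the replicate block 1551 genes were called, and of the 10 genes 2 lower and 0 higher. Pseudocounts of 0.1 and 5 changed no call among the 10 genes. Of 480 refits of 30 other named genes, 447 kept their call and 33 lost it, and none turned direction. Depth per library is unknown, which limits how firmly genes under about 1 FPKM can be read; 3 libraries a group limit the rest.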

Other observations

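Levels were also listed for near-identical copies of Ahcy and Bhmt. Gm4737, a copy of Ahcy, had 187, 176 and 156 FPKM in HepKO livers and 194, 159 and 116 FPKM in Flox livers, and Gm9826 stayed between 22.5 and 30.4 FPKM in all 6 libraries. Gm5096, a copy of Bhmt, had 17.7, 28.1 and 25.2 FPKM in HepKO livers and 64.4, 31.9 and 32.9 FPKM in Flox livers, with Flox replicate 1 highest as for Bhmt itself. The sources used here do not say how reads were divided between these copies and their parent genes.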
